A study of Homo sapiens with 2 samples.

Results

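The regions described here are runs of strong RUNX2 peaks that lie close together in the genome of MDA-MB-231 cells. A RUNX2 peak was called strong when its score was 10 or more, strong peaks on chromosomes 1 to 22 and X were joined when the gap between them was at most 12500 bp, and a joined region with 4 or more strong peaks was called a cluster. By this rule 353 of 14484 joined regions were clusters (2.44%), and they held 1713 of 19379 strong peaks (8.84%). The other joined regions held 1 strong peak (11248 regions, called isolated peaks below), 2 (2231 regions) or 3 (652 regions). The members were thus chosen by their RUNX2 score and spacing, and the clusters were ranked by the sum of the scores of their strong peaks. Because score, spacing and number of RUNX2 peaks defined the clusters, these values are given as description only.

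The study profiled where RUNX2 and MTA1 bind in MDA-MB-231, an established cell line of triple-negative breast cancer. It had 1 library per antibody and no other treatment in the labels. The study's methods name CUT&Tag, although the labelled end repair and adaptor ligation are not steps of it. CUT&Tag brings a transposase to the bound protein through its antibody, and the DNA cut and tagged nearby is sequenced. Each library is represented by the authors' list of called peaks, 61717 for RUNX2 and 42698 for MTA1, of which 61694 and 42673 lay on the chromosomes used. There was no replicate, a control library was not used here, the read depth is unknown, and the score is the authors' own, so scores were compared only within a list and no test over samples was possible. The 95% intervals below are exact (Clopper-Pearson) for shares and Newcombe's for differences, and they cover counting error over peaks only, since peaks of a cluster share 1 library and 1 neighbourhood and are not replicates.

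RUNX2 is a Runt-domain transcription factor best known as the master regulator of osteoblast differentiation, and in breast cancer cells it is studied for its part in invasion and bone metastasis. It binds a short DNA motif together with its partner CBFB and can activate or repress transcription depending on the cofactors it meets. MTA1 is a subunit of NuRD, a complex that combines nucleosome remodelling with histone deacetylation. Dense runs of transcription factor binding are often found around highly regulated genes, both at promoters and at distal elements.

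The promoters below belong to genes of the clusters whose start lies wholly under a strong RUNX2 peak, and they are shown because they place the binding on actual sequence. YIF1B, BLVRB, CIRBP and NIBAN2 lie in clusters ranked 2, 6, 9 and 12, and JUND, AMOTL2 and AXL are members of the gene lists described further on. Each sequence is the RefSeq promoter window of GRCh38.p14, from 250 bases before to 50 bases after the annotated start, written 5′ to 3′ on the strand of the gene. Capitals mark the RUNX motif, searched as TGTGGT or TGCGGT on both strands.
YIF1B promoter, chr19:38315898-38316197, minus strand: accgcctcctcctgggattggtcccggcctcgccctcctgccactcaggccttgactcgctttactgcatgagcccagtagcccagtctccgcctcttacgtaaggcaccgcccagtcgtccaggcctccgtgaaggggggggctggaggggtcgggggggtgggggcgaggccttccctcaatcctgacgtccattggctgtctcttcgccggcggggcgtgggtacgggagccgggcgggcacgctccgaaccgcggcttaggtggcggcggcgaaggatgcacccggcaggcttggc
BLVRB promoter, chr19:40465696-40465995, minus strand: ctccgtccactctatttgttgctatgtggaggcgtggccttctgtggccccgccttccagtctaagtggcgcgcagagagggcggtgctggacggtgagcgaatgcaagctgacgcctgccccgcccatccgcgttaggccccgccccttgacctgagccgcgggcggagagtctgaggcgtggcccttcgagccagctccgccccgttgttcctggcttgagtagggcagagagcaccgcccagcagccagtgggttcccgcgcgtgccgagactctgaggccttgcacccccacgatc
CIRBP promoter, chr19:1269082-1269381, plus strand: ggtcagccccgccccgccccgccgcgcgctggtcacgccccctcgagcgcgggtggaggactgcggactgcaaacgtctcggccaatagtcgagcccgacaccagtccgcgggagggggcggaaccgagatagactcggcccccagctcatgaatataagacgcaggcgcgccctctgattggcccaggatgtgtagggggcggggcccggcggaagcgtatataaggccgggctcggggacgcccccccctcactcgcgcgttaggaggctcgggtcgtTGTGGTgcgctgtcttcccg
NIBAN2 promoter, chr9:127578982-127579281, minus strand: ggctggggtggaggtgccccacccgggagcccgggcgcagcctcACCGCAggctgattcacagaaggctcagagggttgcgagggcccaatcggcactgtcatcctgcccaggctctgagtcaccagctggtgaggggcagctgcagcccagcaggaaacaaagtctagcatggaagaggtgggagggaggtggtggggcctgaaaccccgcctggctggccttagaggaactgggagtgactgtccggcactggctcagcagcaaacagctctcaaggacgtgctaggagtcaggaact
JUND promoter, chr19:18281573-18281872, minus strand: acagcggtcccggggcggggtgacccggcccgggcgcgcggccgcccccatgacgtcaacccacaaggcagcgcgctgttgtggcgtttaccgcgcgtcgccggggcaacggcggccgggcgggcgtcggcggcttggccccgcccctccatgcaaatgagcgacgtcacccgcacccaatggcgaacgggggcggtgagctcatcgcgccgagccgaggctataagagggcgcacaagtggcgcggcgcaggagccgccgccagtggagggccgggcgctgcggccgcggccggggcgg
AMOTL2 promoter, chr3:134374398-134374697, minus strand: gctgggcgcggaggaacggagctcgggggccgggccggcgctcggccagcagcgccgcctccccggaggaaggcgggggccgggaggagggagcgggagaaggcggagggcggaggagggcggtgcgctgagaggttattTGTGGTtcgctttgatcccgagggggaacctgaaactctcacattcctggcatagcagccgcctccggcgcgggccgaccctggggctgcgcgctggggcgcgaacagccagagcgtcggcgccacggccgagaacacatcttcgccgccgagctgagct
AXL promoter, chr19:41218973-41219272, plus strand: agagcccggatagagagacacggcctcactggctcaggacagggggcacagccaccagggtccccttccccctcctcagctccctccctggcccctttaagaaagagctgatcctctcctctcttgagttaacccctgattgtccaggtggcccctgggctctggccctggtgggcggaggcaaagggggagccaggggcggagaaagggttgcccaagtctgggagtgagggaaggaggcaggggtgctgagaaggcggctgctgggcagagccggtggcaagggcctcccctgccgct
Capitals appear once in the CIRBP window, once in the NIBAN2 window and once in the AMOTL2 window, and none of the other 4 windows holds these letters. The peaks over these windows had RUNX2 scores from 12.4 (AXL) to 56.0 (NIBAN2), so the windows with a motif included the strongest of them. Every one of the 7 peaks also overlapped an MTA1 peak, with MTA1 scores from 11.9 (AXL) to 72.6 (JUND).

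Most clusters were small. A total of 203 clusters had exactly 4 strong peaks, 74 had 5, 36 had 6, and 40 had 7 or more, with a maximum of 11. Their span ran from 1.98 to 65.5 kb with a median of 21.1 kb, and together they covered 7.67 Mb. The gap between neighbouring strong peaks of a cluster had a median of 5.16 kb, well below the largest gap the rule accepts. Summed scores ran from 49.3 to 311 with a median of 108, and the strongest peak supplied a median of 36.0% of the sum. That share reached 64.1% in the most uneven cluster. The rule sets a minimum number of strong peaks and a minimum score for each, which holds this share down. It is therefore given as description, and nothing is read from it.

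Values at the edges of the rule were continuous. The lowest score of a strong peak was 10.0005 and the highest score left out was 9.99, while the widest gap joined was 12500 bp and the narrowest gap not joined was 12501 bp. Clusters of 4 strong peaks had a median summed score of 94.1, against 65.5 in the 652 regions of 3. Strong peaks inside clusters had a median score of 19.8 and a median width of 286 bp, against 16.8 and 267 bp for isolated strong peaks.

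**Figure D1:**
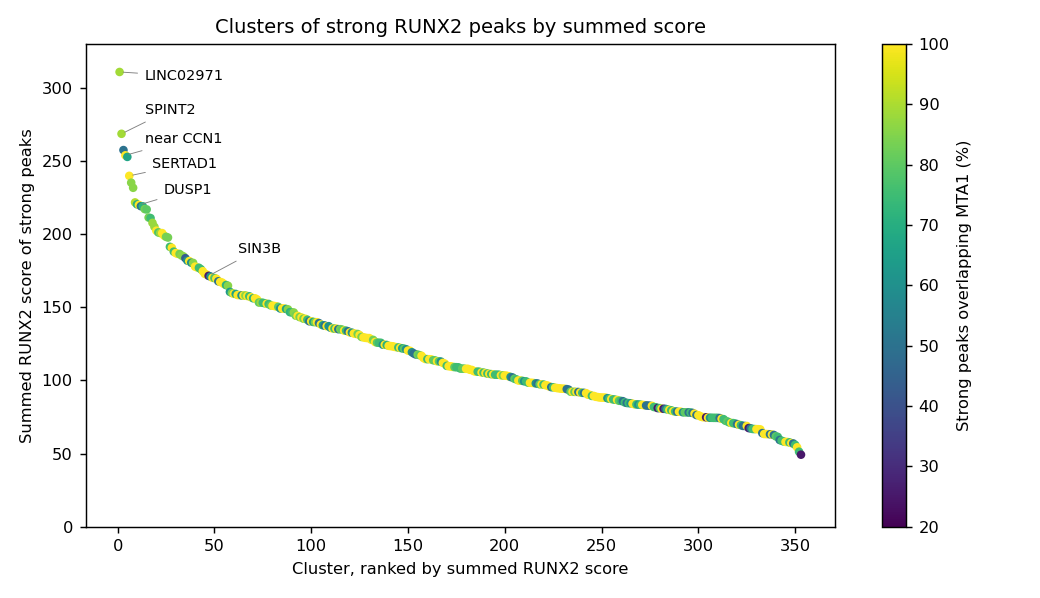
Summed RUNX2 score of the strong peaks of each of the 353 clusters (vertical axis) against the rank of the cluster (horizontal axis), with 1 point per cluster coloured by the percentage of its strong peaks that overlap an MTA1 peak. The sum falls from 311 to 49.3, and clusters with every strong peak overlapping MTA1 (yellow) occur along the whole ranking, while the SIN3B cluster at rank 47 is a dark point at 25%.

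The cluster with the highest summed score, 311 over 9 strong peaks, held no protein-coding gene. It lay at chr1:234957424-234997637 over the long noncoding RNA genes LINC02971, LNCATV and LINC03108, and the nearest coding gene, TOMM20, which encodes a receptor of the mitochondrial protein import machinery, was 112 kb away. Its RUNX2 scores along the chromosome were 25.7, 38.5, 34.4, 25.7, 33.5, 46.5, 17.9, 26.7 and 61.9. The last peak was the strongest in both lists, with an MTA1 score of 43.8, and the fourth peak was the only one of the 9 without MTA1. A second cluster, ranked 129, lay within 1 Mb of it on the same chromosome.

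The cluster ranked 4 was also distal. It lay at chr1:85599087-85629453, 15.1 kb from CCN1, which encodes a secreted matrix protein and is a well-known target of the Hippo effectors YAP and TAZ. Its 6 strong peaks had RUNX2 scores of 29.6, 87.6, 51.1, 17.9, 18.1 and 49.7 and MTA1 scores of 16.9, 49.4, 26.0, 8.24, 22.96 and 14.1. The same peak was the highest in both lists, and the peak with the lowest RUNX2 score was also the one with the lowest MTA1 score. Clusters ranked 16 and 53, over DDAH1 and BCL10, lay in the same 353 kb stretch, so that 3 clusters with 16 strong peaks surrounded this locus.

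The cluster ranked 10 ended at PLAU, which encodes the urokinase-type plasminogen activator, a protease of matrix degradation. Its 7 strong peaks had RUNX2 scores of 10.8, 17.2, 30.7, 36.0, 67.1, 41.8 and 16.9, and the first 2 of them had no MTA1 peak. The strongest MTA1 peak, with a score of 31.4, lay on the last RUNX2 peak, the second-weakest of the 7 rather than on the strongest one, where MTA1 scored 12.2. The cluster ranked 2 spanned SPINT2, an inhibitor of serine proteases, with YIF1B and C19orf33, and 8 of its 9 strong peaks overlapped MTA1. There the RUNX2 maximum was 50.2 at the end of a gene, whereas the MTA1 maximum of 61.97 lay over the YIF1B promoter printed above, where RUNX2 scored 42.6.

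NRP1, a co-receptor for VEGF and semaphorins, carried the cluster ranked 13 inside its body. Its 7 strong peaks had RUNX2 scores of 82.1, 13.6, 50.04, 12.3, 20.1, 15.9 and 25, and 5 of them overlapped MTA1. The peak of score 50.04 was among those without MTA1, so a high RUNX2 score did not always come with an MTA1 peak. ANGPTL4, a secreted inhibitor of lipoprotein lipase, was spanned by the cluster ranked 15, in which 4 of 5 strong peaks overlapped MTA1 and the RUNX2 scores were 20.5, 13.1, 79.3, 50.2 and 53.8. NDST1, an enzyme of heparan sulfate synthesis, was reached by the cluster ranked 5, with 6 of 9 strong peaks overlapping MTA1. KIAA1217 held the cluster ranked 7, with 6 of 7, and DNAJB12, a chaperone gene, was reached by the cluster ranked 14, with 5 of 6. The cluster ranked 8 spanned no coding gene and lay 15.6 kb from PTK2, which encodes focal adhesion kinase, and 6 of its 7 strong peaks overlapped MTA1.

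The cluster ranked 11 spanned DUSP1, a phosphatase that inactivates MAP kinases, and all of its 10 strong peaks overlapped MTA1. Its RUNX2 scores were 22.7, 23.9, 14.7, 31.4, 43.8, 29.6, 13.1, 13.6, 14.8 and 12.3, and its MTA1 scores were 16.03, 42.2, 30.1, 18.2, 22.4, 14.9, 9.74, 11.1, 44.1 and 20.8. The strongest RUNX2 peak and the strongest MTA1 peak were thus different ones, and the MTA1 maximum of 44.1 lay on a peak between genes where RUNX2 scored only 14.8. The cluster ranked 6 spanned SERTAD1 and SERTAD3, coregulators of the cell cycle, and BLVRB, a biliverdin reductase, and all of its 10 strong peaks also overlapped MTA1. In it the RUNX2 maximum was 41.5 at a peak where MTA1 scored 13.8, while the highest MTA1 scores were 38.1, 38.0 and 32.7.

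The cluster with the most strong peaks, 11, ranked 9 and lay in a gene-dense stretch at chr19:1241502-1279957. It spanned ATP5F1D, a subunit of the mitochondrial ATP synthase, MIDN, the cold-inducible RNA-binding protein gene CIRBP, and FAM174C. Its RUNX2 scores were 17.8, 37.5, 10.8, 21.7, 19.0, 24.5, 16.7, 24.97, 17.6, 18.9 and 12.3, so that no peak dominated and the strongest supplied 16.9% of the sum, the lowest share of all 353 clusters. It held 14 MTA1 peaks, the highest number in any cluster, and 10 of its 11 strong peaks overlapped one. The highest MTA1 score, 30.5, lay at the CIRBP start, with the centre of the RUNX2 peak 5 bp from the start.

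Several clusters stood out by MTA1 peaks that were missing. The cluster ranked 3 covered CTNNBIP1, an inhibitor of beta-catenin, and 3 of its 6 strong peaks overlapped MTA1. Those with MTA1 had RUNX2 scores of 65.6, 45.3 and 72.9, and those without had 39.5, 16.9 and 17.3. NIBAN2 at rank 12 showed the same pattern, with 50.5, 69.5 and 56.0 at the peaks with MTA1 and 10.7, 19.0 and 13.4 at the peaks without. The strongest peaks of these clusters carried MTA1 and the others did not.

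SIN3B at rank 47 did not show this pattern. This gene encodes a scaffold of a histone deacetylase corepressor complex distinct from NuRD, and its 4 strong peaks at chr19:16861789-16877927 had RUNX2 scores of 37.6, 22.7, 66.7 and 44.5. Only the weakest of them overlapped an MTA1 peak, and that peak scored 4.46, at percentile 10.5 of the MTA1 list. Each of the other 352 clusters had a strong peak with MTA1 at a higher percentile. The share of 1 in 4 was the lowest of any cluster and was reached by 6 of them. The others lay in VANGL1, a planar cell polarity gene (rank 326), in CCDC12 (rank 304), over LINC01121 on chromosome 2 (rank 282), 31.5 kb from the adaptor gene GRB10 (rank 279) and at the collagen gene COL5A1 (rank 353, the lowest summed score). In the GRB10, CCDC12 and COL5A1 clusters the MTA1 peak lay on the strongest RUNX2 peak, and in the SIN3B, VANGL1 and LINC01121 clusters it did not.

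**Figure D2:**
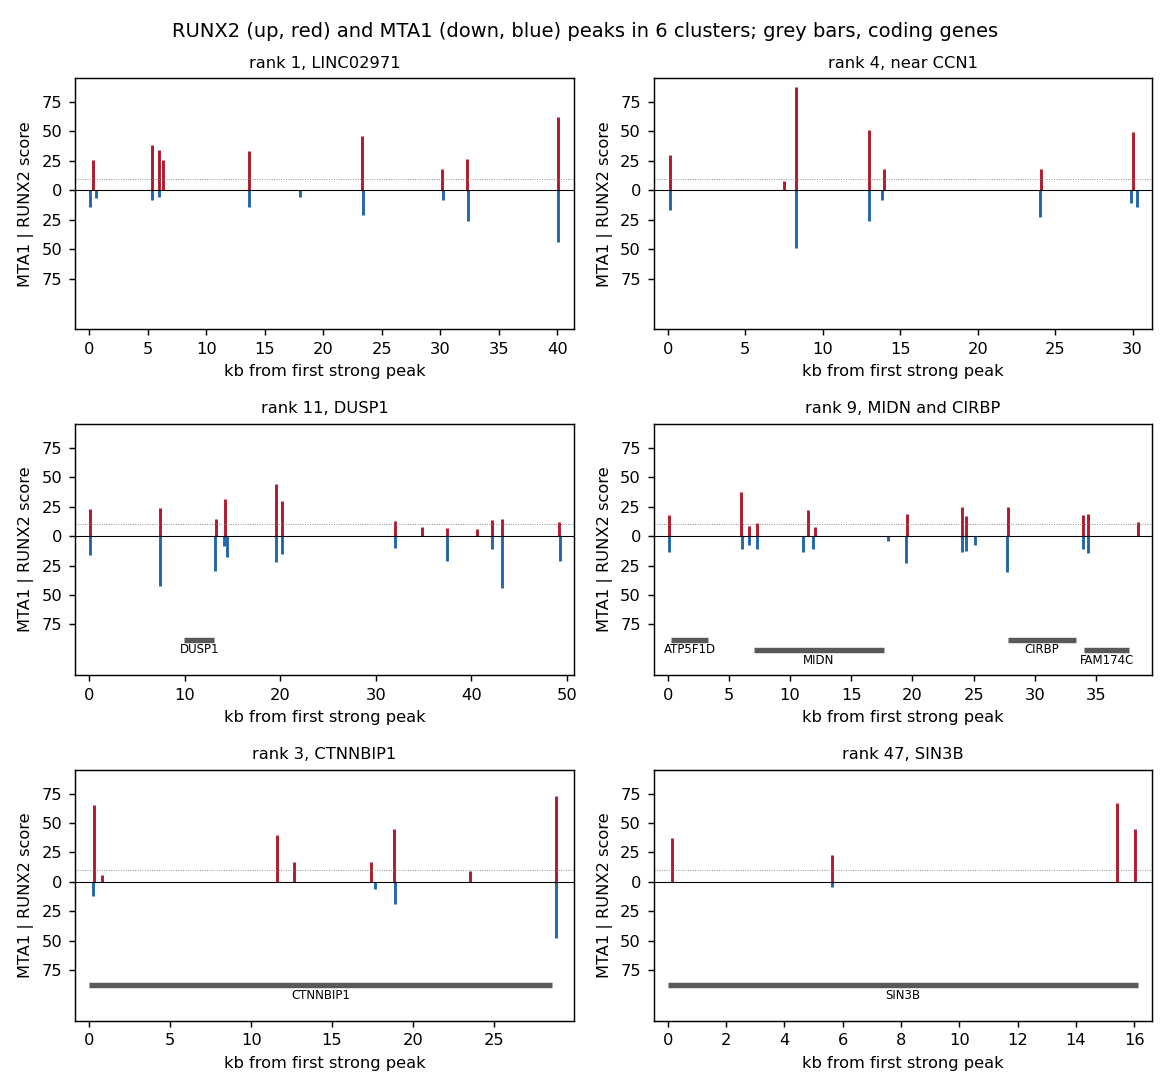
Peaks of 6 clusters, with distance in kb from the first strong peak on the horizontal axis, RUNX2 scores drawn upward in red, MTA1 scores drawn downward in blue, and coding genes as grey bars; scores of the lists are not on a common scale and the dotted line marks a RUNX2 score of 10. In the cluster near CCN1 the highest line is at the same place in both directions, in the DUSP1 cluster the highest lines lie at different places, and in the SIN3B cluster 1 short MTA1 line stands beside 4 RUNX2 lines.

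The next comparison was how MTA1, which the rule did not use, covered the clusters. Of the 1713 strong peaks in clusters, 1410 shared at least 1 bp with an MTA1 peak (82.3%, 80.4% to 84.1%), which is close to the 80.5% over all strong RUNX2 peaks and far above the 45.4% over RUNX2 peaks of any score. Isolated strong peaks overlapped MTA1 in 8991 of 11248 cases (79.9%, 79.2% to 80.7%), a difference of 2.38 percentage points (0.362 to 4.27). Against peaks in regions of 2 and 3 the differences were 0.936 (-1.25 to 3.03) and 1.69 (-0.840 to 4.20), both with intervals that include 0. When the isolated peaks were weighted to the score bands of the cluster peaks, their overlap was 82.1%, close to that of cluster peaks. Within bands the shares still differed, in both directions. Cluster and isolated peaks gave 66.0% and 72.3% at scores of 10 to 15, and 90.3% and 85.1% at 20 to 30. Peaks in regions of 2 and 3 gave 82.8% and 81.5% on the same weighting. With runs joined only over gaps of at most 5 kb, which left 58 clusters, the difference changed sign, to -5.49 points (-11.3 to -0.486).

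Every cluster held at least 1 MTA1 peak. In 149 clusters (42.2%) all strong peaks overlapped MTA1, in 121 all but 1 did, and in 7 fewer than 50% did. The numbers that the 80.5% over all strong peaks would give were not computed, so these counts are description only. The number of MTA1 peaks per cluster had a median of 4 and ran from 1 to 14, for 1629 in all, or 3.82% of the MTA1 list. Only 73 of these 1629 (4.48%) touched no RUNX2 peak of any score, against 34.5% of all MTA1 peaks on the chromosomes used. MTA1 in the clusters thus lay almost entirely at the positions of RUNX2 peaks, of which the rule gathers many into these spans.

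The space between the strong peaks gave a further comparison, in which the flanks hold no strong RUNX2 peak by the rule itself. By peak centres MTA1 had 2.12 peaks per 10 kb within the clusters and 0.307 per 10 kb in the 12500 bp on either side, a ratio of 6.89 (6.06 to 7.87). Counting only MTA1 peaks that touch no strong RUNX2 peak, the densities were 0.244 inside and 0.301 outside, a ratio of 0.809. RUNX2 peaks with a score under 10 had a ratio of 0.915 (0.396 against 0.433 per 10 kb). The higher density of MTA1 inside clusters was that of MTA1 peaks on the strong RUNX2 peaks, and the other MTA1 peaks were no denser inside than in the flanks.

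MTA1 overlap followed the RUNX2 score within clusters. The share with MTA1 was 66.0% at scores of 10 to 15, 82.3% at 15 to 20, 90.3% at 20 to 30, 92.7% at 30 to 50 and 98.5% at 50 or more, and isolated peaks gave 72.3%, 79.4%, 85.1%, 90.8% and 98.3%. The lowest band was the only one in which cluster peaks overlapped MTA1 less often than isolated ones. Accordingly, the strongest peak of a cluster overlapped MTA1 in 333 of 353 clusters (94.3%, 91.4% to 96.5%) and the weakest in 247 (70.0%, 64.9% to 74.7%). Position within the cluster mattered little by comparison, at 83.4% for the outermost peaks and 81.5% for the inner ones.

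Cluster peaks differed from isolated peaks in opposite directions at gene ends and elsewhere, and less from peaks in regions of 2 and 3. Gene ends were defined as a peak centre at most 3 kb from the outermost start or end of a gene over all its transcripts, so a transcript start deep inside a gene, such as that of the YIF1B window printed above, counted as gene body. At gene ends 85.0% of cluster peaks overlapped MTA1 against 90.2% of isolated peaks, a difference of -5.25 points (-8.21 to -2.63). Within 1 kb of a listed coding start, off chromosome 8, the shares were 94.4% (90.7% to 96.9%) and 96.5% (95.8% to 97.2%). Such peaks made up 15.2% of cluster peaks and 25.2% of isolated peaks. The part of this mix in the difference at gene ends was not tested. Away from gene ends the shares were 80.5% and 72.5%, a difference of 7.99 points (5.23 to 10.6). Between genes the gap was wider, at 83.1% against 70.2%, or 12.9 points (8.05 to 17.0). Weighting isolated peaks to the cluster scores left the directions in place, with 91.3% at gene ends, 76.3% in gene bodies and 74.8% between genes for isolated peaks, against 85.0%, 79.3% and 83.1% for cluster peaks. Against regions of 2 and 3 the intervals included 0 at gene ends, at -2.16 points (-5.34 to 0.767) and -1.47 (-5.08 to 2.10), and in gene bodies, at 1.83 (-1.86 to 5.32) and 2.11 (-2.06 to 6.22). Between genes they did not, at 7.06 points (1.76 to 11.9) and 7.47 (1.27 to 13.6). Transcript starts listed in the promoter table lay within 3 kb of 56 of the 695 cluster peaks in gene bodies (8.06%) and of 241 of the 4300 isolated ones (5.60%). With these counted as gene ends, the differences from isolated peaks were -5.32 points (-8.19 to -2.77) at gene ends and 8.46 (5.62 to 11.1) away from them.

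The deficit at gene ends was largest among the weakest strong peaks. In the band of 10 to 15, 69.9% of 209 cluster peaks at gene ends overlapped MTA1 (63.1% to 76.0%) against 85.3% of 1904 isolated ones (83.7% to 86.9%), and in the band of 15 to 20 the shares were 89.2% and 90.5%. Away from gene ends the largest gap was in the band of 20 to 30, with 90.1% of 232 cluster peaks (85.5% to 93.6%) against 78.1% of 1375 isolated peaks (75.8% to 80.3%). Where an MTA1 peak was present, its score had a median percentile of 78.1 in the MTA1 list at cluster peaks and 76.7 at isolated peaks.

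**Figure D3:**
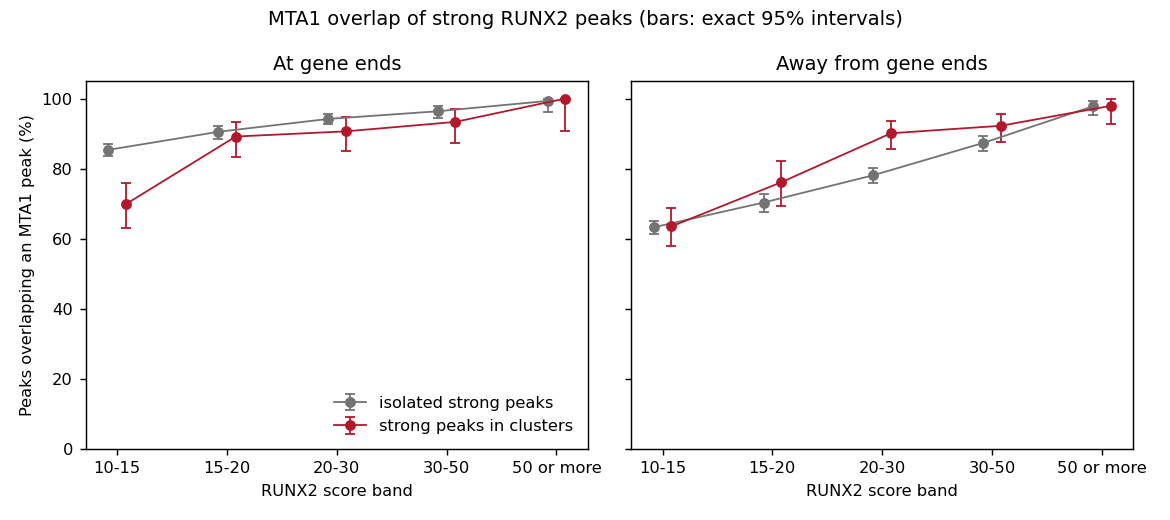
Percentage of strong RUNX2 peaks that overlap an MTA1 peak (vertical axis) by RUNX2 score band (horizontal axis) for peaks in clusters (red) and isolated peaks (grey), at gene ends on the left and elsewhere on the right, with exact 95% intervals. At gene ends the red point of the band of 10 to 15 lies at 69.9%, below the grey point at 85.3%, and away from gene ends the red point of the band of 20 to 30 lies at 90.1%, above the grey point at 78.1%.

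By gene ends the location of cluster peaks was close to that of other strong peaks. The share at coding starts is counted per peak and is given as description only. Within 3 kb of a gene end lay 40.5% of cluster peaks (38.1% to 42.8%), against 41.9% over all strong peaks. A further 40.6% lay elsewhere in gene bodies and 19.0% between genes, and the values for isolated peaks were 38.2% and 19.9%. The interval of the difference from isolated peaks included 0 for each of the 3 shares. Within 1 kb of the annotated start of a coding gene, however, lay 15.2% of cluster peaks (13.5% to 17.0%) and 25.2% of isolated peaks, a difference of -10.0 points (-11.9 to -8.04). The share was 21.7% in regions of 2 and 19.4% in regions of 3. It is counted per peak and the rule sets the number of peaks in a region, so nothing is read from this order. The part of that number in the difference from isolated peaks was not tested. Weighted to the scores of cluster peaks, isolated peaks still gave 24.9%.

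Starts were taken from the promoter table, which covers 15811 of 19256 coding genes off chromosome 8 (82.1%) and 81.8% of those that clusters span, so peaks on chromosome 8 were left out and peaks at unlisted starts counted as away from a start. Counted by region, a strong peak at a coding start was found in 150 of 338 clusters (44.4%, 39.0% to 49.9%), 38.7% of regions of 3, 33.0% of regions of 2 and 25.2% of isolated peaks. A region with more peaks has more chances to hold one at a start, and the rule sets the number of peaks, so nothing is read from this order.

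In all 150 of these clusters some strong peaks lay at a coding start and others did not, which allowed both kinds to be compared within a cluster. Of their 752 strong peaks 33.0% lay at a start. The strongest RUNX2 peak lay at a start in 48 of 150 clusters (32.0%, 24.6% to 40.1%), about the share that all peaks gave. The strong peak with the highest MTA1 score lay at a start in 85 (56.7%, 48.3% to 64.7%). In 44 clusters the MTA1 maximum was at a start and the RUNX2 maximum away from it, and the reverse held in 7, while both were at a start in 41 and both away in 58. MTA1 maxima therefore fell on coding starts more often than RUNX2 maxima of the same clusters.

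Smaller regions showed the same order. In regions of 3 with peaks of both kinds the shares were 42.5% for RUNX2 and 65.8% for MTA1, and in regions of 2 they were 49.6% and 71.3%. Over all peaks on chromosomes with listed starts, 22.7% of MTA1 peaks and 15.9% of RUNX2 peaks lay within 1 kb of a coding start. With either end of a coding gene in place of its start, which needs no list of starts, the share was 46.6% for the MTA1 maximum and 33.7% for the RUNX2 maximum of a cluster. Over all 353 clusters, the strongest MTA1 score fell on the strongest RUNX2 peak in 164 (46.5%, 41.2% to 51.8%).

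**Figure D4:**
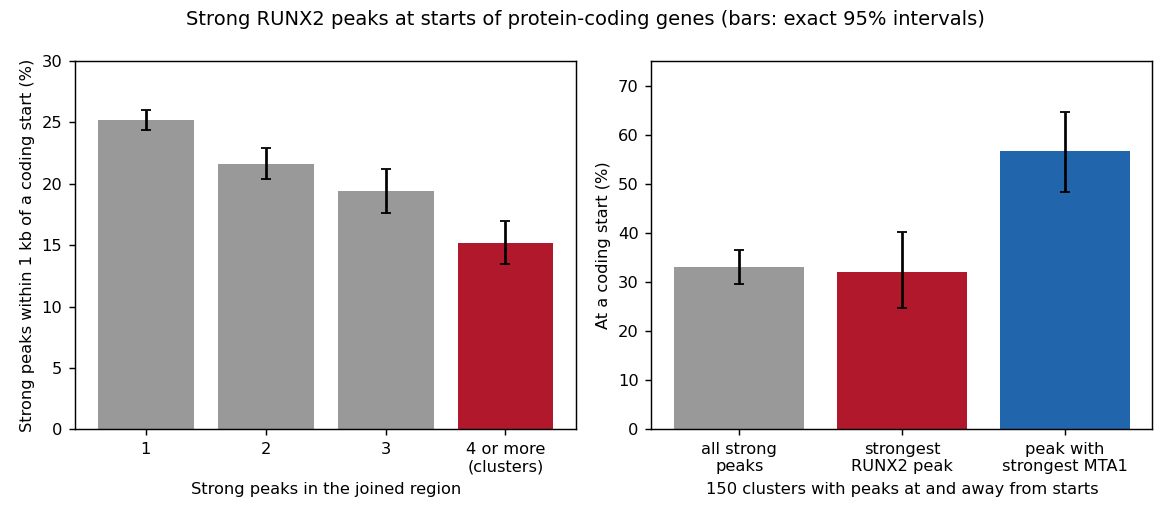
Left, percentage of strong RUNX2 peaks within 1 kb of the start of a coding gene (vertical axis) by the number of strong peaks in the joined region (horizontal axis), falling from 25.2% to 15.2%. Right, for the 150 clusters with peaks at and away from starts, the percentage at a start among all strong peaks (33.0%), among the strongest RUNX2 peaks (32.0%) and among the peaks with the highest MTA1 score (56.7%), with exact 95% intervals on all bars.

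The clusters were uneven among chromosomes. Chromosome 19 held 40 clusters and 20.4% of its 1036 strong peaks lay in one, followed by chromosomes 22 (15.0%), 17 (13.6%) and 10 (12.52%). The lowest shares were on chromosomes 4 (2.56%) and X (3.58%). The run with the most clusters, counting those within 1 Mb of a neighbour, was 12 clusters with 67 strong peaks over 2970 kb at chr19:610686-3580411, which held the MIDN and CIRBP cluster and clusters over GADD45B, GPX4 and STK11. A run of 7 clusters lay at chr22:36365095-38241177, over MYH9, CARD10 and MAFF among others. Chromosomes 19, 22 and 17 are gene-dense, and the part of gene density in these shares was not tested.

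**Figure D5:**
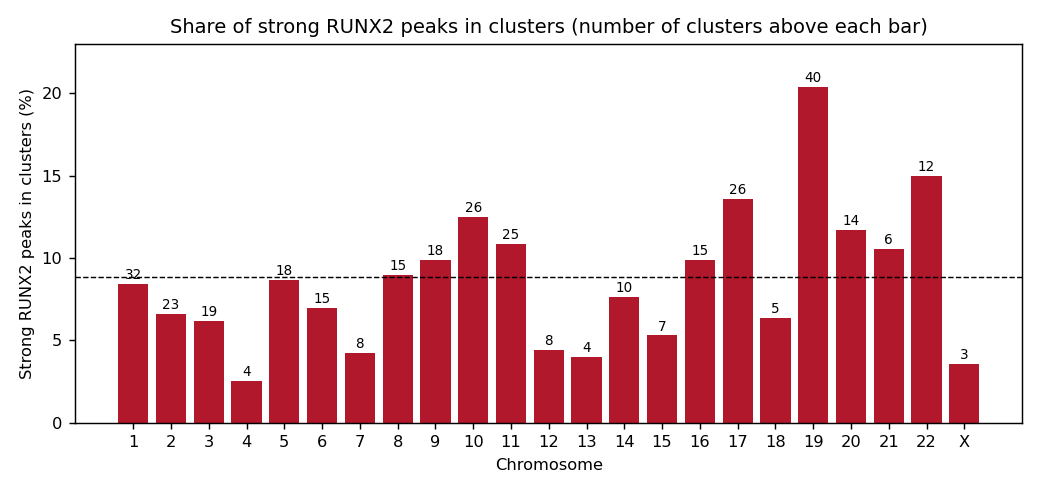
Percentage of the strong RUNX2 peaks of each chromosome that lie in clusters (vertical axis), with the number of clusters above each bar and the share over all chromosomes (8.84%) as a dashed line. Chromosome 19 is highest at 20.4%, and chromosomes 4 and X are lowest at 2.56% and 3.58%.

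The clusters overlapped the bodies of 426 protein-coding genes, or 2.13% of the 19970 on these chromosomes, and of 262 other genes. The share of all other genes that these 262 make up was not computed, and nothing is read from their number. Of the clusters, 201 spanned 1 coding gene, 85 spanned 2 or more, and 67 spanned none, with a median of 30.7 kb to the nearest one. In 94 the whole cluster lay within 1 coding gene, as in NRP1, LMNA and SMAD3. All strong peaks lay in gene bodies away from ends in 68 clusters and between genes in 17. The spanned genes were not longer than others, with a median length of 21.5 kb against 24.2 kb over all coding genes.

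Genes of 12 lists were then looked up, chosen for the factors, pathways and cell type of the study with earlier results of these data known. Of 149 genes, 16 overlapped a cluster (10.7%, 6.26% to 16.9%), against the 2.13% of all coding genes, and the median length of the listed genes was 34.4 kb, longer than average. The lists hold genes known to be active or studied in such cells, and nothing particular to RUNX2 is read from this share. The lists were short, and the interval of every list included the 10.7% of all lists, so no difference among lists is read. Of AP-1 and small MAF factors 4 of 12 overlapped a cluster (9.92% to 65.1%), and of TGF-beta genes 3 of 13 (5.04% to 53.8%). Of growth factor receptors and ligands 3 of 11 did (6.02% to 61.0%), and of adhesion and cytoskeleton genes 4 of 24 (4.74% to 37.4%). Of the RUNX family and its partners (CBFB and the TLE genes) 1 of 8 overlapped a cluster and of Hippo genes 1 of 12, with intervals that include 2.13%. None of the 13 NuRD, 11 EMT, 15 bone metastasis, 9 NF-kB, 10 luminal identity and 11 study target genes did, where upper limits of the intervals ran from 21.8% to 33.6%.

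AP-1 factors are dimeric activators of growth and stress responses, and FOSL1, JUND, JUNB and MAFF, a small MAF factor, were the members in clusters. The FOSL1 cluster at rank 130 had RUNX2 scores of 11.5, 20.3, 44.9, 18.1, 18.5 and 15.7, and all 6 strong peaks overlapped MTA1. At JUND, rank 205, the scores were 14.5, 34.1, 13.4, 26.9 and 12.2, and the peak of 34.1 over the JUND start carried an MTA1 score of 72.6, higher than 99.95% of the MTA1 list. No other cluster had a higher MTA1 score. JUNB lay in the cluster ranked 352, which had only weak members, with scores of 10.8, 15.3, 13.0 and 12.2. MAFF shared the cluster ranked 170 with PLA2G6, and the strong peak at the MAFF start had the lowest score of its 4, 11.8.

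Among TGF-beta genes, SMAD3, which encodes a signal transducer of the receptors, held the cluster ranked 77 within its body. Its 4 strong peaks had RUNX2 scores of 50.9, 22.1, 53.8 and 25.6, and all overlapped MTA1, with scores of 5.66, 4.84, 21.8 and 16.5. The cluster at the ligand gene TGFB1 and at CCDC97, rank 259, had 1 peak of 37.5 beside 4 between 10.2 and 16.8, and its MTA1 peaks scored at most 8.88. Both maxima lay on the same peak at SMAD3 and on different peaks in the TGFB1 cluster.

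The adhesion and cytoskeleton genes had some of the highest ranks. LMNA, which encodes the nuclear lamins A and C, held 9 strong peaks within its body at rank 21, with scores of 11.2, 12.2, 13.0, 20.7, 34.9, 27.7, 22.8, 45.7 and 13.0. Its strongest peak had an MTA1 score of only 6.33, and the MTA1 maximum of 23.6 lay on the peak of 27.7. The cluster at the integrin gene ITGA3, rank 41, had a single dominant peak of 59.95, which also carried the MTA1 maximum of 43.5, and all 7 strong peaks overlapped MTA1. MYH9, a nonmuscle myosin heavy chain, ranked 94, with its maximum of 52.0 at the start of the gene and 5 of 6 strong peaks overlapping MTA1.

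Of the receptor tyrosine kinases, AXL had a cluster at rank 256 with RUNX2 scores of 12.4 at the promoter printed above and 20.6, 42.7 and 11.3 within the gene. The peak of 42.7 lay 675 bp from another listed coding start and was counted as at a start. EPHA2, rank 289, had 27.7, 25.1, 13.5 and 12.4, and its strongest peak had no MTA1. RUNX1, the paralogue of RUNX2, held the cluster ranked 298 inside its body with scores of 20.96, 10.6, 12.8 and 33.0. All 4 overlapped MTA1, but with scores no higher than 7.82, and the strongest RUNX2 peak was not the one with the MTA1 maximum. AMOTL2, which encodes a YAP-binding scaffold, was the Hippo member, at rank 207, with scores of 19.1, 36.4, 16.8 and 27.8 and MTA1 at all 4.

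The longest and the densest clusters were of different kinds. The longest, rank 18, ran over 65.5 kb at TMSB10, the gene of an actin-sequestering thymosin, and 6 of its 8 strong peaks lay between genes. MTA1 overlapped 7 of the 8, and RUNX2 and MTA1 both had their maximum, 46.1 and 45.0, on the same intergenic peak. The densest, rank 299, had 4 strong peaks within 1975 bp in BBC3, which encodes the pro-apoptotic protein PUMA. Its RUNX2 scores were 19.2, 29.4, 17.0 and 10.8, and the peaks of 29.4 and 10.8 had no MTA1.

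Some clusters held microRNA genes, and the mature sequences of the best-known ones are shown to identify the transcripts that the peaks surround. These clusters were chosen after their contents were seen. The cluster ranked 72 spanned NANOS3 and MIR23AHG, the host transcript of MIR23A, MIR27A and MIR24-2, and the cluster ranked 300 spanned VMP1 and MIR21. Sequences are from RefSeq (GRCh38.p14), 5′ to 3′, with the seed, bases 2 to 8, in capitals.
hsa-miR-23a-3p, chr19:13836595-13836615, minus strand: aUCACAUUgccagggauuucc
hsa-miR-27a-3p, chr19:13836447-13836467, minus strand: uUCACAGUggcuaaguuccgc
hsa-miR-24-3p, chr19:13836289-13836310, minus strand: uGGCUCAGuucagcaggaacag
hsa-miR-21-5p, chr17:59841273-59841294, plus strand: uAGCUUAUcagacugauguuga
The 4 seeds are all different. A strong RUNX2 peak centre lay 437, 581 and 737 bp from the hairpins of MIR23A, MIR27A and MIR24-2, and 1918 bp from that of MIR21. All strong peaks overlapped MTA1 in both clusters, 7 of 7 and 4 of 4, and RUNX2 and MTA1 had their maxima on the same peak in each, with RUNX2 scores of 61.0 and 32.7 and MTA1 scores of 43.6 and 42.3. In all, 28 annotated microRNA hairpins lay within clusters. Their share of all annotated hairpins was not computed, so nothing is read from this count.

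Promoter sequence could be compared more broadly for coding genes with a listed window. The RUNX motif (TGTGGT or TGCGGT, either strand) was present in 54 of 203 windows with at least 150 bases under a strong peak of a cluster (26.6%, 20.7% to 33.2%). It was present in 25.9% of 2742 windows under isolated strong peaks, in 17.4% of 17340 windows with no strong peak and in 19.0% of all 22011 windows. An AP-1 motif, searched as TGANTCA, was present in 6.40%, 4.12%, 6.51% and 6.16% of the same sets. The GC content of these sets was 67.4%, 66.0%, 59.6% and 60.9%, and its part in the motif shares was not tested. Promoters in clusters thus carried the RUNX letters about as often as promoters under isolated peaks.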

How the data were processed

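RUNX2 and MTA1 CUT&Tag libraries of MDA-MB-231 cells, 1 each, were grouped by antibody from the labels. The authors deposited 1 peak list per library with a score for each peak, whose scale is not stated. The submitters' processing notes name CASAVA 1.4, Bowtie 0.12.8, MACS and MACS2 without their order, and hg19. The positions were those of GRCh38 instead: a GRCh38 coding start was within 1 kb for 15.9% of 58789 RUNX2 peaks (2.19% after a move of 100 kb) and for 22.7% of 40669 MTA1 peaks (2.36%), so RefSeq genes and promoters of GRCh38.p14 were used. Labels and methods name different antibody suppliers, and the labelled end repair and adaptor ligation are not steps of CUT&Tag.

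A peak whose score (as deposited, no unit) was 10 or more was called strong. Peaks overlapped when they shared at least 1 bp. Isolated peaks were weighted to the score bands 10, 15, 20, 30 and 50 of cluster peaks. With 1 library per antibody no test was run. The text names the 15 clusters of highest summed score, the longest, the densest, the one with most strong peaks, up to 5 with the highest and lowest MTA1 share, and those at genes of the 12 lists, except clusters at some listed genes that are not reported here, and says where others were chosen after their values were seen. Members and lists were chosen with earlier results of these data known. The planned motif search in peaks needs a genome sequence and was replaced by one in promoter windows. Peaks on chromosome Y and mitochondrial DNA were left out. Steps were tested on simulated data. Computations used scipy 1.17.1, numpy 2.4.6 and pandas 2.3.3 under Python 3.11.15, and figures matplotlib 3.10.9.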

Additional observations from a re-analysis of the deposited data

Results flagged for a closer look

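A total of 7 RUNX2 peaks with a score of 10 or more lay on mitochondrial DNA, outside the chromosomes from which clusters were built. These peaks were flagged because they were left out of the clusters. Their scores ran from 12.2 to 42.0, and 7 of 7 overlapped an MTA1 peak. No control library was analysed here, so the background on mitochondrial DNA was not tested.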

How the results depend on the processing

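No paired analysis was possible because each antibody has 1 library. The read depth is unknown, so a peak missing from a list can be a weak one, and no replicate error exists. Of the recomputed values, 73 stayed within the main interval or within 1.5 times the main count, 53 did not, and 1 reversed. The reversed one was the MTA1 overlap of clusters minus isolated peaks, at -5.49 points with gaps of at most 5 kb against 2.38. It was 4.91 with gaps of at most 25 kb, 5.39 with MTA1 scores of 10 or more, 7.99 away from gene ends and 8.46 away from both gene ends and listed transcript starts. Its interval included 0 with at least 3 peaks (1.48, -0.00572 to 2.91), at least 5 peaks (2.53, -0.189 to 4.99), centres within 200 bp (1.37, -0.710 to 3.33) and an overlap of 50% of both peaks (1.43, -0.951 to 3.73).

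The rule itself moved the counts most. With gaps of at most 5 kb or 25 kb, RUNX2 scores of at least 15 or 8, and at least 5 or 3 peaks, there were 58, 807, 131, 620, 150 and 1005 clusters, spanning 42, 1428, 141, 750, 201 and 1044 coding genes. The listed genes spanned became 2 and 34 with the gaps, 7 with scores of 15, and 8 and 29 with 5 and 3 peaks. Of the 15 clusters with the highest sums, 5 remained among the first 15 with gaps of 5 kb and 5 with 25 kb.

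MTA1 overlap of cluster peaks was 75.5% with 5 kb gaps, 89.5% and 78.3% with RUNX2 scores of 15 and 8, 58.1% with MTA1 scores of 10 or more and 69.5% with an overlap of 50% of both peaks. The median MTA1 percentile was then 75.4, 81.8, 75.2, 85.4 and 79.7, 75.7 away from gene ends and 75.5 away from both gene ends and listed starts. The density ratio of MTA1 was 4.94 with 25 kb flanks, 25.2 with MTA1 scores of 10 or more, 5.54 and 8.02 with RUNX2 scores of 15 and 8, and 4.56 with 25 kb gaps. The share at gene ends was 24.5% with a 1 kb window, 27.5% at coding genes, 43.7% with 5 kb gaps and 43.7% with listed starts counted as ends.

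The per-peak share at coding starts, clusters minus isolated peaks, was -5.84 points with a 3 kb window and -7.78 with at least 3 peaks. It was -7.68 with 25 kb gaps and -13.5 with 5 kb gaps. The RUNX2 maximum lay at a start in 20.7% with scores of 15 and 23.6% with at least 5 peaks. The MTA1 maximum did so in 93.3% with 5 kb gaps and in 46.6% when either end of a coding gene counted. The motif share was 33.3% in windows wholly under a peak. The 3 kb window, either gene end, listed starts only, listed starts as gene ends, whole windows and leaving out the ribosomal RNA genes were chosen after seeing the data. The planned motif alternatives, the central 150 bp and the whole peak, were not run.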

Other observations

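Clusters also lay at genes of the extracellular matrix that no list held, and these were named after their values were seen. COL1A1, which encodes the main collagen of bone, had the cluster ranked 45 with 5 strong peaks, RUNX2 scores from 17.0 to 49.4 and MTA1 at all 5, in the same stretch of 192 kb as the ITGA3 cluster. The collagen crosslinking enzymes LOXL1 and LOXL2 ranked 36 and 134 with MTA1 at 3 of 5 and 4 of 5 strong peaks, and the laminin gene LAMA5 ranked 148 with 4 of 5. COL5A1 ranked last with MTA1 at 1 of 4.

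SVIL, an actin-binding scaffold gene, held 7 strong peaks inside its body at rank 35, of which 3 overlapped MTA1. Its strongest peak of 80.4 carried an MTA1 score of 63.2, so a low share of peaks with MTA1 went with 1 of the highest MTA1 scores seen here. Chaperone genes HSPA1A, HSPA1B and HSPA1L shared the cluster ranked 124 with LSM2. They are near-identical copies in part, so the split of reads among them is uncertain.

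The cluster ranked 99 lay in the ribosomal RNA genes of chromosome 21. These genes are repeated, so the placing of reads there is uncertain, and leaving this cluster out kept the count of clusters, the MTA1 overlap and its difference from isolated peaks within the ranges given above. Across the 353 clusters, summed RUNX2 and summed MTA1 scores had a Spearman rho of 0.50, a description over regions that share span and number of peaks.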
